A study of Mus musculus with 6 samples.

Results

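Laminins, the proteins that build basement membranes with them, and the integrin receptors that hold cells to these sheets are described here in the cochlear lateral wall of young and old mice. The set holds 37 genes, chosen by name from what their proteins are known to do: 10 laminin chains, 5 nidogens and heparan sulphate proteoglycans, 4 genes of the Fraser complex and nephronectin, 5 laminin receptors, 8 further integrin alpha chains and 5 further integrin beta chains. All 37 are among the 17091 gene symbols of the deposited table. Leukocyte integrins are not in the set and are given only for comparison.

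The mice were of the inbred strain CBA/CaJ, and no other genotype or treatment is labelled. Young mice were 2 months old and old mice 2.5 years old, with 3 libraries per group, each from the pooled cochleas of 1 mouse. The replicate spread is that between separately prepared mice and includes any differences of dissection. The labels give no sex, and the tissue was isolated by microdissection. The source field of all libraries names cells of the auditory nerve, while the tissue field and the design name the lateral wall. Transcripts that mark the lateral wall were abundant in every library: Coch, a secreted protein of fibrocytes, stood between 322028 and 821557 normalised read counts, and Kcne1, a potassium channel subunit of marginal cells, between 23286 and 30938. The neurofilament gene Nefl lay between 12.25 and 58.1 in the young libraries and in old replicate 1, and at 815 and 890 in old replicates 2 and 3. Recovered reads per library ranged from 37055355 to 39103398. Old replicate 3 had 45.2 normalised read counts of Xist, a transcript of X inactivation, against 24382 or more in the other libraries. Sex may thus differ between old replicate 3 and the other libraries, and its part in the values was not tested. The summed level of 7 erythroid markers was 179 to 273 in young libraries and 2289, 279 and 3942 in old replicates 1, 2 and 3.

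A basement membrane is a thin sheet of matrix under epithelia and around vessels, nerve and muscle fibres. Laminin trimers of an alpha, a beta and a gamma chain form one network, type IV collagen forms another, and nidogens and perlecan join them. Integrins are receptors of an alpha and a beta chain that bind laminin, collagen or proteins with the peptide arginine-glycine-aspartate (RGD), and dystroglycan is a laminin receptor of another kind. In the lateral wall such sheets surround the capillaries of the stria vascularis.

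Of the 37 genes, 10 were lower and 0 higher in old mice by limma, fitted to log2(value + 1) of 17091 genes (p adjusted by Benjamini-Hochberg, called under 0.05). Over all genes, 2.55% were called lower and 2.71% higher, 5.25% in all. The genes that fell were the laminin chains Lama2, Lamb1, Lamb2 and Lamc1, the endostatin precursor Col18a1, the integrin ligand Npnt, dystroglycan (Dag1), and the integrin alpha chains Itga8, Itga10 and Itga11. Changes are the old mean minus the young mean of log2(value + 1), given with ± the SE, and levels are normalised read counts with ± the SD (n = 3 per group). The median change of the set was −0.30, against −0.01 over the 13308 genes with a mean of at least 50 counts, a level that 36 of the 37 reached. In 14 genes every old library lay below every young one, and in 2 above (12.8% and 13.2% of all genes). At an unadjusted p under 0.05, 15 were lower and 3 higher, against 1805 lower and 1842 higher of all 17091 genes. EdgeR on recovered reads called 10 lower and 0 higher (2.24% and 2.76% of all genes), and DESeq2 called 13 lower and 1 higher (4.93% and 5.71%). The limma count of lower genes was 5, 4 and 4 without young replicates 1, 2 and 3. The count over all genes was 898 with every library and 561, 288 and 230 without young replicates 1, 2 and 3. Npnt, Itga8, Lama2 and Itga10 kept their call in all 15 alternative analyses.

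**Figure D1:**
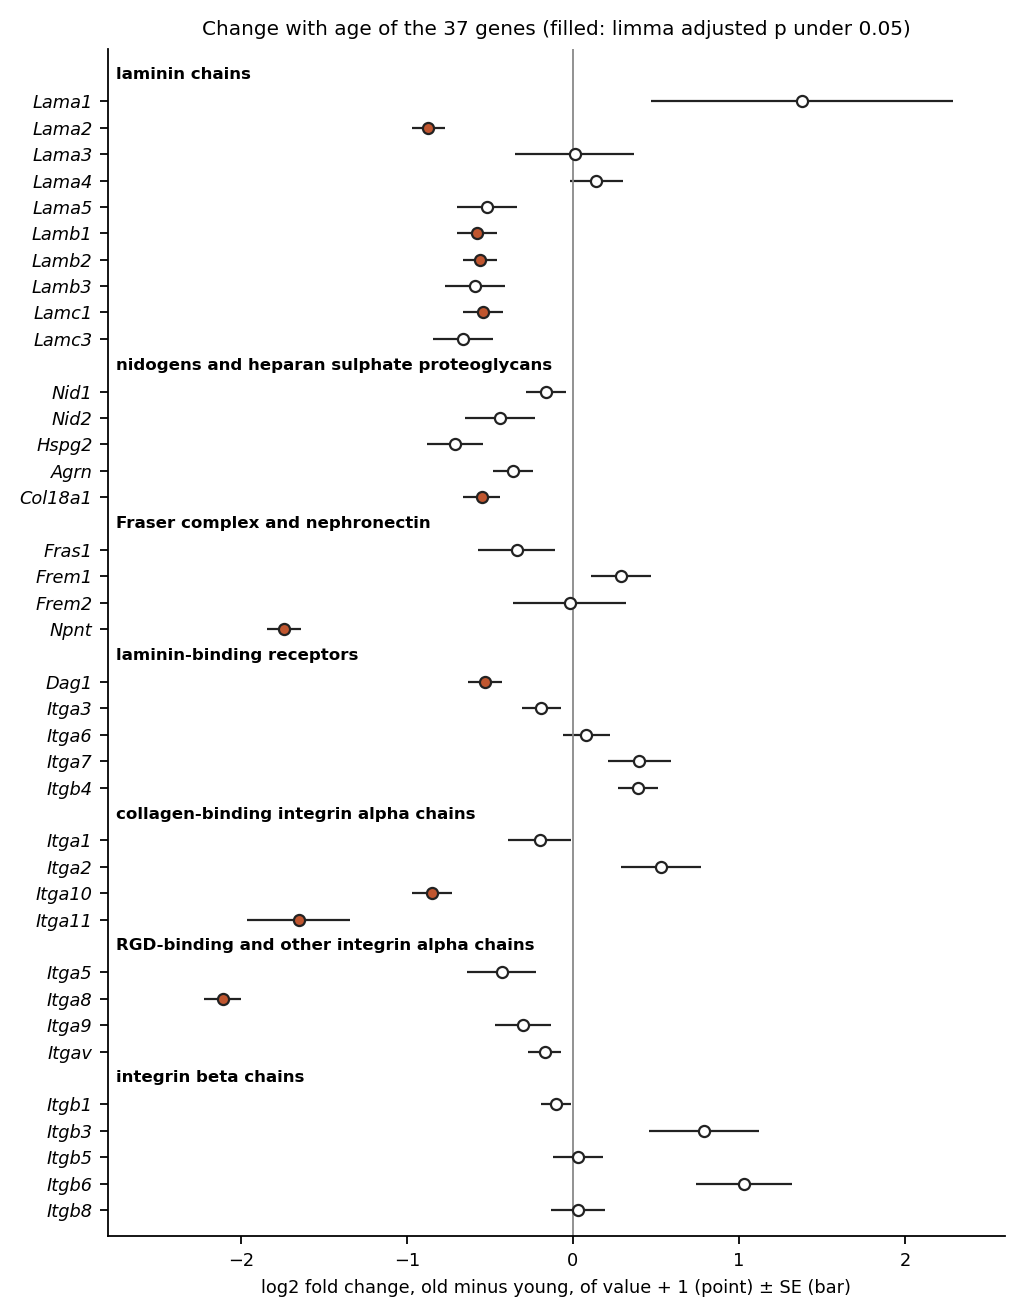
Old mean minus young mean of log2(value + 1) (x axis) for each of the 37 genes (y axis, grouped by role); points are estimates, bars the SE, and filled points have a limma adjusted p under 0.05. The 10 filled points lie to the left of 0, with Itga8 (−2.11) and Npnt (−1.74) farthest out.

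The promoters of these 4 genes are shown because their transcripts fell together in every analysis run. Each is the stretch of 250 bases before the RefSeq start (assembly GRCm38.p6, minus strand for Npnt, Itga8 and Lama2 and plus strand for Itga10), and 26 of the 37 genes have an entry in the promoter table used. Capitals mark matches, on either strand, to 6 motifs: the TATA box TATAAA, the CCAAT box, the GC box GGGCGG, the AP-1 site TGANTCA, the TEAD site GGAATG and the RUNX site TGTGGT.
Npnt, chr3:132950292-132950541: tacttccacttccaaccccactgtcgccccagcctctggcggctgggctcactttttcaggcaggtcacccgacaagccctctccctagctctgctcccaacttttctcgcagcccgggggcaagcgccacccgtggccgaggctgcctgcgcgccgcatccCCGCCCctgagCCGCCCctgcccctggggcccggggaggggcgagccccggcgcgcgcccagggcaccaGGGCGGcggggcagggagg
Itga8, chr2:12301945-12302194: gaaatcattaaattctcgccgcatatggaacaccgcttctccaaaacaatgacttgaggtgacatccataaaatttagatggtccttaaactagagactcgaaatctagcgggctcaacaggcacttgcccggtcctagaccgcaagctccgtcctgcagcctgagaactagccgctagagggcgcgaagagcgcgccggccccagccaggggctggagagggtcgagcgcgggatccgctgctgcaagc
Lama2, chr10:27616943-27617192: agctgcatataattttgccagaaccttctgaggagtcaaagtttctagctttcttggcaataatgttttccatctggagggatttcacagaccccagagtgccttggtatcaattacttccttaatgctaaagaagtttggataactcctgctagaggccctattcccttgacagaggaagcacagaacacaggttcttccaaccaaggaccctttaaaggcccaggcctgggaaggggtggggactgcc
Itga10, chr3:96645334-96645583: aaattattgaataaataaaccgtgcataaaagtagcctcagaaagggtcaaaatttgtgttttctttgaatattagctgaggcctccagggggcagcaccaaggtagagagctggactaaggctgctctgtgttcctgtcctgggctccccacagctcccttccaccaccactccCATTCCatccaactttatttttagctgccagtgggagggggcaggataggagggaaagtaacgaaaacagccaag
The Npnt window held 3 GC boxes, beginning 88, 77 and 19 bases before the start, and the Itga10 window 1 TEAD match beginning 75 bases before it. None of the 6 motifs was found in the Itga8 and Lama2 windows, so no motif was shared by all 4. Of 32851 RefSeq promoter windows of the same length, 32.7% held the GC box and 12.6% the TEAD site. The promoter table lists 2 windows for Npnt, and the RefSeq start of Lama2 lies inside the gene as GENCODE annotates it. The other motifs were held by 12.4% (TATA), 33.8% (CCAAT), 6.75% (AP-1) and 14% (RUNX), and the motifs do not overlap one another in these windows.

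The ligand nephronectin and the integrin chain that binds it had the lowest ratios of old to young mean among the 37 genes. Npnt encodes nephronectin, an RGD protein of basement membranes and a ligand of the integrin alpha8 beta1. It stood at 10845, 11211 and 10237 normalised read counts in young replicates 1, 2 and 3 and at 3182, 3567 and 2930 in the old, a 3.34-fold lower mean (log2 change −1.74 ± 0.10, limma adjusted p = 0.000217). The lowest young library was 2.87-fold above the highest old one. Itga8 encodes the alpha8 chain, which is known for its part in kidney development and in hair cell stereocilia. Its values were 6124, 6541 and 6051 in the young and 1454, 1653 and 1258 in the old libraries, a 4.29-fold lower mean (−2.11 ± 0.11, limma adjusted p = 0.000217). Both groups were tight and far apart in both genes. Itgb1, the beta chain that alpha8 pairs with, stood at 18769, 17419 and 17435 in young and 17534, 16512 and 16124 in old libraries. The groups overlapped, and the change was −0.10 with a 95% interval of −0.30 to 0.11 (limma adjusted p = 0.607).

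In GRCm38 (mm10), Npnt lies on chromosome 3 from 132881745 to 132950291 and Itga8 on chromosome 2 from 12106632 to 12301922. Values are counts over the whole gene. Opposite-strand exon overlaps are annotated for 10 genes of the set, among them Lama2 (with Gm48084). Exons of Itga10 overlap those of Gm42957 on the same strand, over 1739 bases. Neither Gm48084 nor Gm42957 has values in the deposited table. Exons of Itga8 overlap those of E030013I19Rik on the opposite strand, and no source used here states if strand was kept. E030013I19Rik stood at 312.6, 535 and 356 in young and 121, 199.5 and 99.9 in old libraries. Of 7 fibrocyte markers 2 fell, Otos (−1.71 ± 0.20) and Gdf10 (−1.80 ± 0.34). The summed marker level was 1015684 to 1142513 in young and 430982 to 933780 in old libraries. Most of that sum was Coch, which overlapped between groups and was not called (−0.75 ± 0.26, limma adjusted p = 0.148). All 7 markers lay below every young library in old replicates 1 and 3; in old replicate 2, 3 did (Otos, Gdf10 and Tbx18) and 4 lay within the young range. Of 9 bone cell markers 5 fell, and their sum was 4852.9 to 7553.5 in young and 3051.5 to 4143 in old libraries. Their part in the result was not tested. In bulk tissue, fewer cells of a type and less RNA per cell cannot be told apart.

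**Figure D2:**
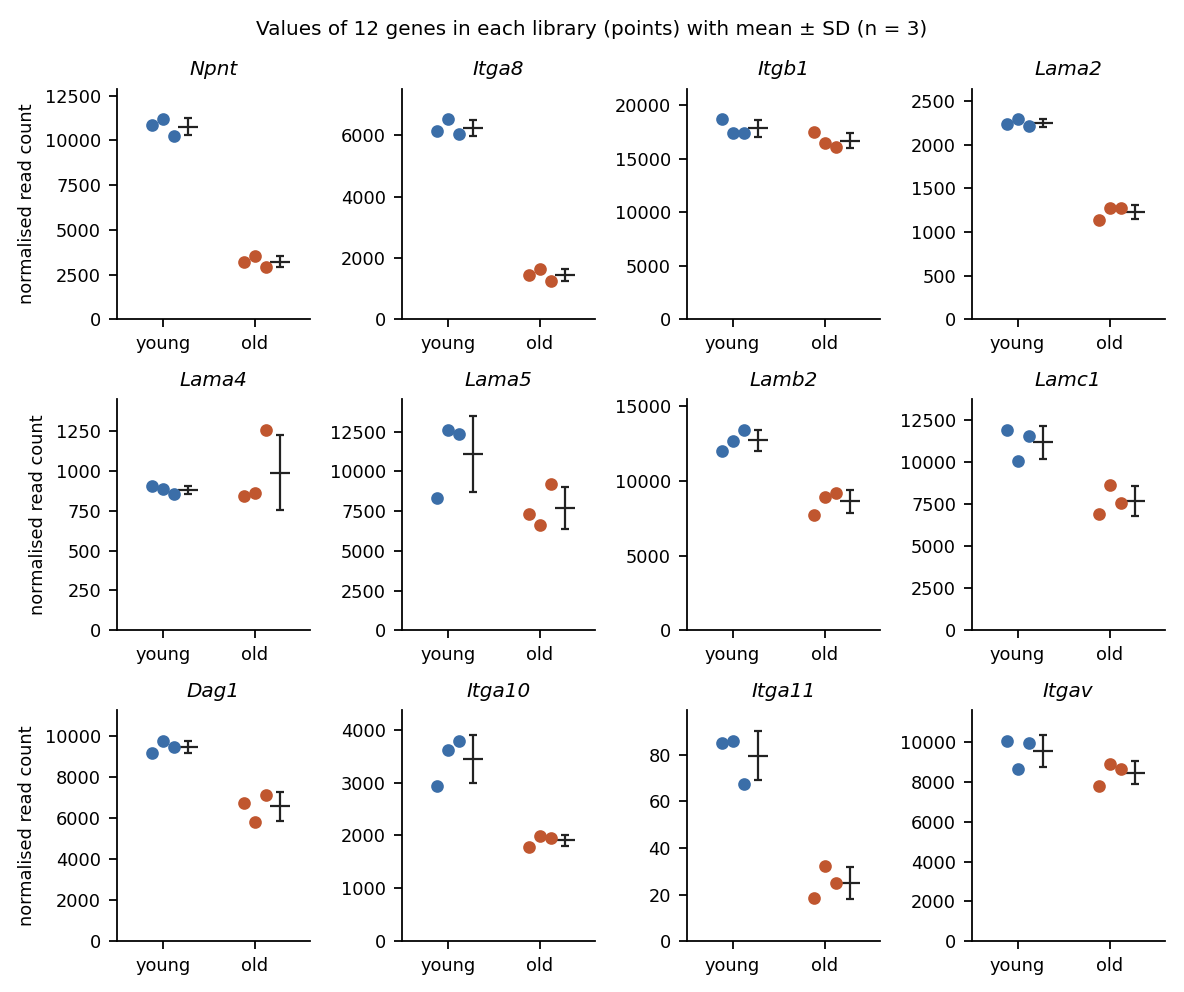
Normalised read counts (y axis, from 0) of 12 genes in the 3 young and 3 old libraries (points), with mean ± SD beside them. The groups are apart in Npnt (10237 or more against 3567 or less) and Itga8, and overlap in Itgb1, Lama4, Lama5 and Itgav.

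Among the laminin chains, 4 of 10 fell and 0 rose, with a median change of −0.55. At an unadjusted p under 0.05, 7 were lower and 0 higher. EdgeR called 4 lower and 0 higher, and DESeq2 called 6 lower and 0 higher. Lama2 encodes the alpha2 chain, the laminin of muscle fibres and Schwann cells that binds dystroglycan. It stood at 2231, 2298 and 2211 in young and 1135, 1276 and 1273 in old libraries (−0.87 ± 0.10, limma adjusted p = 0.0025). The groups were far apart relative to their spread. The other alpha chains did not pass. Lama5, the alpha5 chain of epithelia and mature vessels, stood at 8322.5, 12636 and 12336 in young and 7292, 6627 and 9186 in old libraries (−0.52 ± 0.18, adjusted p = 0.149), and young replicate 1 lay below old replicate 3. Lama4, the alpha4 chain of endothelium, was 902, 887 and 851.5 in young and 841.5, 863 and 1258 in old libraries (0.14 ± 0.16), and the high value was that of old replicate 3 alone. Lama3, the alpha3 chain of surface epithelia, ranged from 93.4 to 166 in young and from 90.8 to 220.0 in old libraries (0.01 ± 0.36).

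Lama1, the alpha1 chain of early embryos, was near the floor of detection. It had 4.196, 10.4 and 6.13 normalised read counts in the young libraries and 2.91, 46.3 and 39.4 in the old (1.38 ± 0.91, limma adjusted p = 0.431). The old libraries split, and replicates 2 and 3 were the high ones. Summed auditory nerve markers were 457 to 856 in young libraries and 779.5, 7811 and 8251 in old replicates 1, 2 and 3. All 8 nerve markers were detected, and the part of nerve tissue in the Lama1 values was not tested. Without old replicate 1, Lama1 was called higher (limma adjusted p = 0.0253).

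The beta and gamma chains that most laminin trimers share moved by similar amounts. Lamb1, the beta1 chain, stood at 5056, 4050 and 4168 in young and 2750.5, 2840 and 3262 in old libraries (−0.58 ± 0.12, limma adjusted p = 0.0256). Lamb2, the beta2 chain of vessels, muscle and kidney filters, stood at 12008, 12677.5 and 13427 against 7723, 8921 and 9218 (−0.56 ± 0.10, adjusted p = 0.0182). Lamc1, the gamma1 chain of most trimers, stood at 11932, 10057.5 and 11536.5 against 6885, 8627 and 7541 (−0.54 ± 0.12, adjusted p = 0.0307). In these 3 genes every old library lay below every young one, by a ratio of lowest young to highest old of 1.24, 1.30 and 1.17. Lamb3 and Lamc3 also had no overlap but did not pass, with −0.59 ± 0.18 (adjusted p = 0.0914) and −0.66 ± 0.18 (0.0738). Lamb3 is a chain of the laminin under surface epithelia, and Lamc3 encodes the gamma3 chain. Without old replicate 2 the limma test called Lamb3 (0.0289), and without old replicate 3 it called Lamc3 (0.0273). The call of Lamb2 was lost without young replicates 2 (0.0787) or 3 (0.104), and that of Lamb1 without any 1 young library or old replicate 1 (up to 0.0895). The call of Lamc1 was lost in every run without 1 library but that without old replicate 2 (up to 0.144), and with quantile normalisation (0.0543).

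Alpha chains compete for one place in the trimer, so their make-up was compared per kilobase of the longest annotated transcript, as a description without a test. The summed alpha level was 1367 ± 214 counts per kilobase in young and 984 ± 164 in old libraries. Lama5 gave 65.2%, 73.4% and 73.8% of it in young and 70.5%, 66.8% and 68.8% in old libraries, and the groups overlapped. Lama4 gave 13.3%, 9.70% and 9.60% in young and 15.3%, 16.4% and 17.7% in old libraries, with no overlap. The Lama4 counts themselves overlapped between groups (log2 change 0.14 ± 0.16), so the higher share does not by itself mean a higher level. Lama2 gave 20.7%, 15.8% and 15.7% against 13.0%, 15.2% and 11.3%. So the mean share of Lama4 was 5.62 points higher and the difference for Lama2, old minus young, was −4.21 points, while Lama3 gave at most 1.78% and Lama1 at most 0.559% in any library. With the union of all exons as the length, the difference was 3.32 points for Lama4 and −2.76 points for Lama2. Without young replicate 1, which had the highest Lama2 share, the Lama2 difference was −2.56 points.

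Among the beta chains, the sum was lower in every old library and the share of the main chain differed by 0.228 points. The summed beta level per kilobase was 3341.5 ± 62.6 in young and 2258 ± 158 in old libraries, and Lamb2 gave 67.5% ± 3.4 and 67.8% ± 1.6 of it.

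**Figure D3:**
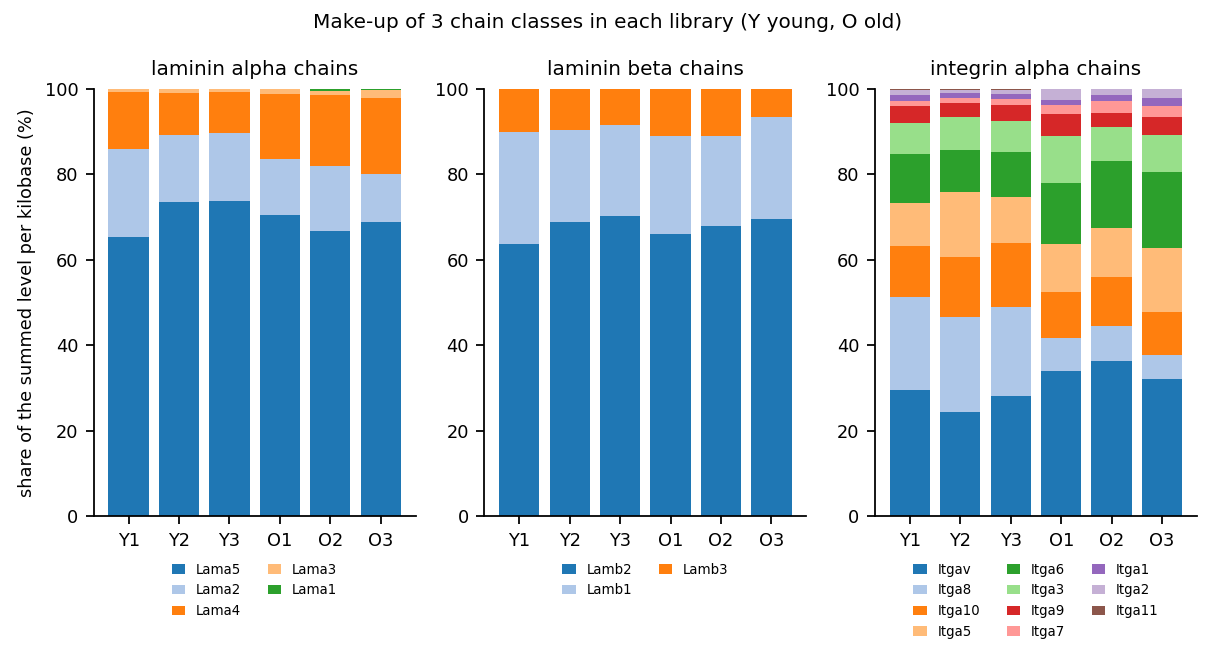
Share of each chain (stacked bars, % of the summed level per kilobase of its class) in the 3 young (Y) and 3 old (O) libraries, for laminin alpha and beta chains and integrin alpha chains. Lama4 takes 9.60% to 13.3% in young and 15.3% to 17.7% in old libraries, and Itga8 takes 20.8% to 22.2% and 5.65% to 8.18%.

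Of the linkers and proteoglycans, Col18a1 was the 1 of 5 that fell. It encodes collagen XVIII, a heparan sulphate proteoglycan of basement membranes whose end fragment is endostatin. It stood at 1610, 1821 and 1593 in young and 1119, 1064 and 1262 in old libraries (−0.55 ± 0.11, limma adjusted p = 0.0285). Leaving out any 1 young library or old replicate 1 ended this call (adjusted p up to 0.123). Hspg2, which encodes perlecan, the large proteoglycan that ties the laminin and collagen networks together, lay just outside the threshold. Its values of 5349, 5239 and 5224 in young and 3141, 2497 and 4269 in old libraries did not overlap (−0.71 ± 0.17, adjusted p = 0.0508). It passed without old replicate 2 (0.0489) or old replicate 3 (0.00947). Its young values differed little from one another, and its old values spread widely.

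Agrin (Agrn), a proteoglycan of basement membranes and of the nerve-muscle synapse, had −0.36 ± 0.12 (limma adjusted p = 0.139). The nidogens, which bridge laminin and type IV collagen, did not pass either. Nid1 stood at 2482, 2417 and 2289 in young and 1857, 2167 and 2438 in old libraries (−0.16, 95% interval −0.42 to 0.10), and Nid2 had −0.44 ± 0.21. In both, old replicate 3 lay within the young range. Exons of Nid2 overlap Rtraf on the opposite strand, which had 709 to 876 counts in young and 826 to 1006 in old libraries, so the value of Nid2 is uncertain.

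Fras1, Frem1 and Frem2 encode the Fraser complex, which anchors embryonic epithelia to the dermis below. None passed the limma test, nor edgeR or DESeq2, and none had an unadjusted p under 0.05. Frem1 had 2042 to 3332 counts in young and 2820 to 3753 in old libraries (0.29 ± 0.18). Frem2 had −0.02 ± 0.34. Fras1 had 71.47 to 82.97 counts in young and 57.65 to 63.99 in old libraries, without overlap (−0.34 ± 0.23, limma adjusted p = 0.452).

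Of 5 laminin receptor genes, dystroglycan fell and the integrin chains did not pass. Dag1 encodes the alpha and beta subunits of dystroglycan, which links laminin to dystrophin. Its values were 9149, 9765 and 9441 in young and 6749, 5796 and 7124 in old libraries (−0.53 ± 0.10, limma adjusted p = 0.0218). The groups were apart, but the call was lost without any 1 young library (adjusted p up to 0.105). Itga3 and Itga6, the laminin-binding alpha chains of epithelia and vessels, had −0.19 (95% interval −0.46 to 0.08) and 0.08 (−0.23 to 0.40). Itga7, the laminin receptor chain of muscle, ranged from 233 to 289 in young and 287 to 402 in old libraries (0.40 ± 0.19, adjusted p = 0.25).

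Itgb4, the partner of alpha6 in hemidesmosomes, stood at 1066, 918 and 892 in young and 1300, 1128 and 1339 in old libraries. Every old library lay above every young one, and the change of 0.39 ± 0.12 did not pass (limma adjusted p = 0.107). It is 1 of the 3 genes of the set with an unadjusted p under 0.05 and a higher level in old mice, beside Itgb3 and Itgb6. Exons of Itgb4 overlap B230344G16Rik on the opposite strand.

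Of 4 collagen-binding alpha chains, 2 fell and 0 rose. Itga10, a collagen receptor chain of cartilage, fell from 2935, 3621 and 3795 to 1787, 1982 and 1956 (−0.85 ± 0.12, limma adjusted p = 0.0059). Itga11, the fibroblast receptor chain for fibrillar collagen, had few counts, 85.0, 86.1 and 67.4 in young and 18.4, 32.1 and 25.0 in old libraries (−1.65 ± 0.31, adjusted p = 0.0191). Both were lower in every old library than in any young one. The Itga11 call was lost without any 1 young library (adjusted p up to 0.0934). Itga1, whose product binds type IV collagen, overlapped between groups (−0.20, 95% interval −0.63 to 0.23). Itga2, a receptor chain of platelets and epithelia, stood at 430, 264.5 and 321 in young and 565, 351 and 558 in old libraries (0.53 ± 0.24, adjusted p = 0.243). The higher old libraries were replicates 1 and 3. Whether Itga10 and Itga11 differ in their change from Itga1 and Itga2 was not tested.

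Among the RGD and related alpha chains, Itga8 alone of 4 passed. Itgav, which pairs with several beta chains and binds vitronectin and latent TGF-beta, had −0.17 (95% interval −0.40 to 0.06). Itga5, the main fibronectin receptor chain, had −0.43 ± 0.21 (limma adjusted p = 0.287), and Itga9, whose product binds tenascin, −0.30 ± 0.17. As a share of the 11 alpha chains of the set per kilobase, Itga8 made up 21.7%, 22.2% and 20.8% in young and 7.67%, 8.18% and 5.65% in old libraries. Itgav made up 29.5%, 24.3% and 28.1% against 34.0%, 36.4% and 32.1%, and Itga6 11.5%, 9.69% and 10.4% against 14.2%, 15.5% and 17.7%. The counts of Itgav and Itga6 overlapped between groups, and neither gene was called. The summed alpha level per kilobase was 4974 ± 108 in young and 3524.5 ± 288.5 in old libraries. So Itga8 was the second alpha chain of the young lateral wall by level per kilobase, after Itgav. In old libraries it ranked below Itgav, Itga6, Itga5, Itga10 and Itga3.

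None of the 5 further beta chains passed limma or edgeR, 2 were higher at an unadjusted p under 0.05 (Itgb3 and Itgb6), and DESeq2 called Itgb6. Itgb5 and Itgb1 were the most abundant genes of the set per kilobase, at 6048 ± 780 and 4685 ± 203 in young and 6222 ± 1219 and 4384 ± 191 in old libraries. Itgb5, a partner of alphaV, had a log2 change of 0.03 (95% interval −0.31 to 0.37). Itgb8, another partner of alphaV that activates latent TGF-beta, had 0.03 (−0.33 to 0.39). Itgb6, the epithelial partner of alphaV, stood at 74.5, 41.5 and 52.1 in young and 137, 106 and 97.0 in old libraries, a 2.02-fold higher mean without overlap (1.03 ± 0.29, limma adjusted p = 0.0764). Itgb3, the beta chain of platelets and osteoclasts, stood at 313, 235 and 210.3 in young and 539, 246 and 602 in old libraries (0.79 ± 0.33, adjusted p = 0.217). Its high libraries were old replicates 1 and 3, which also held the most erythroid marker counts. Itga2b, the platelet partner of Itgb3, stood at 483, 217.5 and 378 in old replicates 1, 2 and 3, against 284 to 385 in the young. The part of blood in these values was not tested. Without old replicate 2, Itgb3 was called higher (limma adjusted p = 0.0105).

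**Figure D4:**
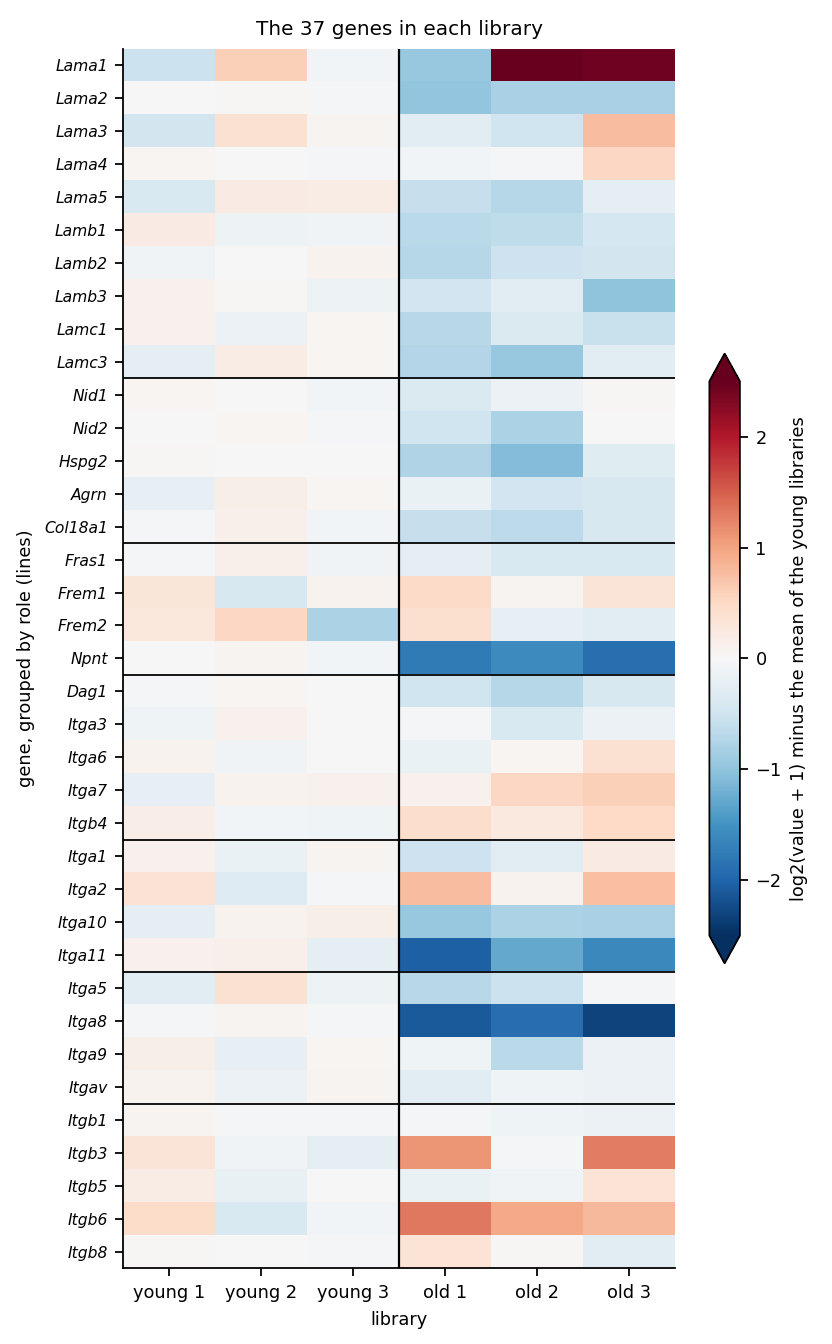
Log2(value + 1) of each of the 37 genes (rows, lines separate the roles) in each library (columns), minus the mean of the young libraries; blue is lower and red higher. Npnt, Itga8 and Itga11 are low in all 3 old libraries, whereas Lama1 is high in old replicates 2 and 3 and Itgb3 in old replicates 1 and 3.

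The old libraries differed among themselves. Old replicate 3 had the highest old value in 18 of the 37 genes, replicate 1 in 10 and replicate 2 in 9, and the median difference from the young mean was −0.37, −0.39 and −0.15 in replicates 1, 2 and 3. Highest in old replicate 3 were Lama3, Lama4, Lama5, Lamb1, Lamb2, Lamc3, Nid1, Nid2, Hspg2, Col18a1 and Dag1. So were Itga1, Itga5, Itga6, Itga7, Itgb3, Itgb4 and Itgb5. The summed level of 12 endothelial markers was 20114 to 22581 in young libraries and 16460, 23392 and 28054 in old replicates 1, 2 and 3. In old replicate 3, 9 of the 12 lay above every young library, 1 within the young range and 2, Eng and Plvap, below every young library. None of the endothelial markers was called by limma (1 higher and 2 lower at an unadjusted p under 0.05, edgeR 0, DESeq2 1 higher and 2 lower), and their part in these gene values was not tested. Without old replicate 3, the library low in Xist, limma called 11 genes of the set lower and 612 of all genes in either direction, against 10 and 898 with every library.

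Of 30 further basement membrane genes 7 fell and 0 rose by limma (16 lower and 1 higher at an unadjusted p under 0.05, edgeR 7 lower and 0 higher, DESeq2 13 lower and 0 higher), with a median change of −0.49. The 3 with the smallest p were Megf9, a transmembrane protein with laminin-like repeats (−0.80 ± 0.10), and the type IV collagen chains Col4a3 (−1.90 ± 0.26) and Col4a6 (−1.23 ± 0.19). The limma count was 4, 3 and 2 without young replicates 1, 2 and 3. Of 5 hemidesmosome genes 1 rose, Lad1, which encodes ladinin (0.52 ± 0.12, limma adjusted p = 0.0444). That call was lost in every run without 1 library but that without old replicate 2. Krt14, a keratin of basal epithelia, had 1.04 ± 0.29 (0.0771), and Cd151, a tetraspanin that binds laminin-binding integrins, −0.12 ± 0.09.

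Of 21 genes of the dystroglycan complex and its glycosylation, limma and edgeR called 0, DESeq2 called 2 lower, and 4 were lower and 0 higher at an unadjusted p under 0.05. Sspn, which encodes sarcospan, had −0.53 and Pomgnt1, an enzyme that builds the laminin-binding sugar, −0.29, with limma adjusted p of 0.0774 and 0.107. Of 33 genes of the adhesion complex on the integrin tail, 1 fell and 0 rose (9 lower and 0 higher at an unadjusted p under 0.05, edgeR 1 and 0, DESeq2 4 and 0). The gene that fell was Actn1, an actin crosslinker, from 30733 ± 313 to 21382 ± 1882.5 (−0.53 ± 0.10, adjusted p = 0.0211). This call was lost without any 1 young library or old replicate 1. Bcar1, a scaffold of focal adhesions, had −0.40 ± 0.10 and Tns2, a tensin, −0.58 ± 0.16, and neither passed (0.0517 and 0.0748). The median change was −0.12 in this list and −0.09 in the dystroglycan list.

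Of 18 other integrin ligands 2 fell and 0 rose (8 lower and 1 higher at an unadjusted p under 0.05, edgeR 2 and 0, DESeq2 5 and 0). They were Ctgf, a matricellular growth factor, with −1.18 ± 0.23 (limma adjusted p = 0.0285), and Thbs1, which encodes thrombospondin 1, with −0.71 ± 0.16 (0.0397). Both calls were lost without young replicate 2, young replicate 3 or old replicate 2, and that of Thbs1 also without old replicate 3. Fbn1, the main microfibril protein, had −1.0 ± 0.27 (0.0715). The leukocyte and platelet integrins went the other way: 6 of 9 rose and 0 fell by limma, edgeR and DESeq2, with 0 lower at an unadjusted p under 0.05. Itga4, the alpha4 chain of lymphocytes and monocytes, stood at 524.5, 563 and 457 in young and 1143, 945 and 1287.5 in old libraries (1.12 ± 0.15, limma adjusted p = 0.00495), with Itgax and Itgb2 the other genes of smallest p in this list (5.85 ± 0.36 and 2.42 ± 0.20). Exons of Itga4 overlap Cerkl on the opposite strand, which had at most 61.5 counts. Of 8 macrophage markers 5 rose and 0 fell, and their sum was 5344 to 6095 in young and 18220 to 29082.5 in old libraries. Itgb1, the beta chain of alpha4, had the change given above.

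**Figure D5:**
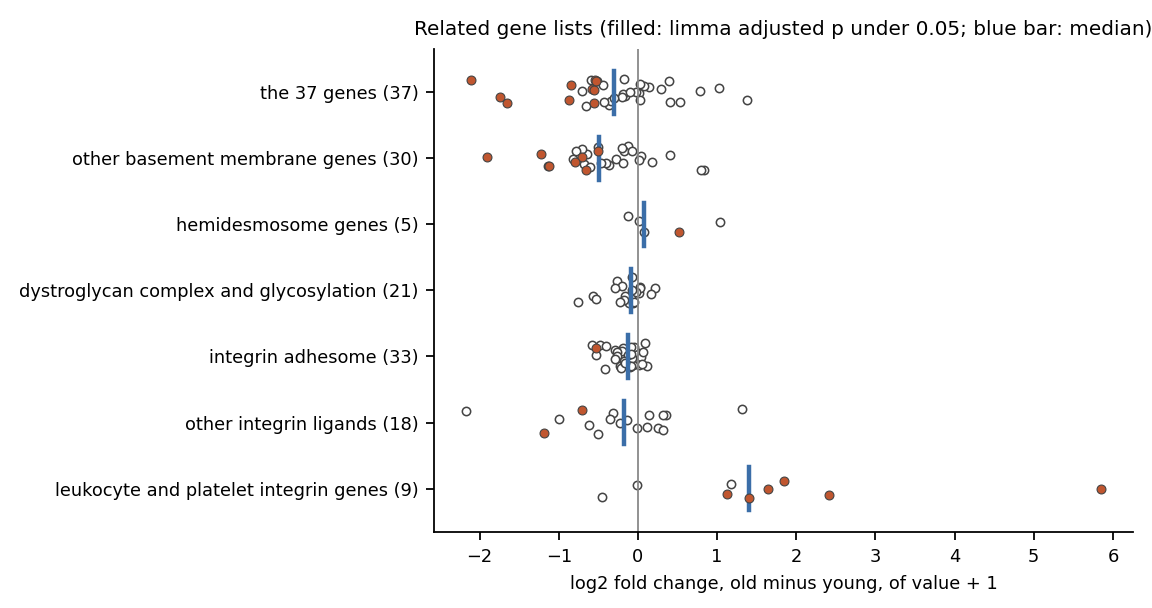
Old mean minus young mean of log2(value + 1) (x axis) for the 37 genes and of the genes of 6 related lists (y axis, number of genes in brackets); filled points have a limma adjusted p under 0.05 and blue bars are medians. The medians are −0.30 for the 37 genes, −0.49 for other basement membrane genes and 1.40 for leukocyte and platelet integrins.

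The authors' deposited table gives its own p-values for the same comparison. At its adjusted p under 0.05, 13 of the 37 genes are lower and 1 is higher (4.93% and 5.70% of all genes). Beyond the 10 above, its lower genes are Lamb3, Lamc3 and Hspg2, and the higher one is Itgb6. The authors' deposited table holds signed fold changes of −4.29 for Itga8 and −3.34 for Npnt.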

How the data were processed

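RNA of 6 lateral wall libraries was sequenced, 3 per age group. Per the labels' protocols, both cochleas of a mouse were pooled, the miRNeasy Mini Kit gave total RNA, and library preparation used a TruSeq RNA kit. The submitters' processing notes name Partek, TopHat2, DESeq2 and mm10; versions and the annotation they used are not given in the sources used here. Deposited values are a signal, read counts scaled per library, as judged from the values. Division by the step between low values (0.946 to 1.05) brought 99.9% of values to whole reads (tolerance 0.1), which were then used as recovered reads. The depths differed by at most 1.055-fold, and deeper libraries would narrow counting error only. The authors deposited a p-value, an adjusted p-value (absent for 332 genes) and a signed fold change per gene, per the file headers.

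Groups were compared with limma 3.58.1 (trend and robust, R 4.3.3) on log2(value + 1), over 17091 genes without a filter, with Benjamini-Hochberg adjustment and a threshold of 0.05. Fold changes on this scale understate genes with few reads. EdgeR 4.0.16 (quasi-likelihood, TMM) and DESeq2 1.42.0 were run on recovered reads. All fits were also run on simulated counts, with planted changes larger than those of most called genes of the set. Those runs do not show how well changes of the smaller sizes are found. The members, lists and tests were chosen with earlier results of these data known, and every member is named, with the 3 genes of smallest p in each related list, some of which are not reported here. An exact permutation test of 3 against 3 cannot go below 0.1, so none was run. Positions and lengths come from GENCODE M21 on GRCm38, which mm10 names, and 98.5% of symbols matched. Shares of chains were computed per kilobase of the longest transcript, or of the exon union as an alternative. Alternatives were quantile normalisation, another variance model, other tools, pseudocounts of 0.1 and 10, a minimum mean of 10, other thresholds, the replicate number as a block and leaving out each library.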

Additional observations from a re-analysis of the deposited data

How the results depend on the processing

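The 10 lower genes became 5 without trend and robust variance, 5 with the replicate number as a block and 4 at an adjusted p under 0.01, and leaving out 1 library gave 4 to 12. The 0 higher genes became 1 with DESeq2, with the authors' deposited p and at an adjusted p under 0.1, and 0 to 1 on leaving out 1 library. Over all genes, 898 calls became 337 without trend and robust variance, 1819 with DESeq2, 1818 with the authors' deposited p, 406 with the block, 210 at 0.01 and 1642 at 0.1, and leaving out 1 library gave 230 to 1134. The cause was not tested. Deviations of same-numbered young and old libraries from their group means had correlations of −0.244, −0.0965 and −0.0879. Those of differently numbered libraries ranged from −0.146 to 0.235. With 3 libraries per group these values cannot decide whether the replicate numbers pair the samples.

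Log2 changes that turned direction, none of them called, were those of Lama3 (−0.12 with quantile normalisation, −0.21 without young replicate 1, −0.37 to 0.26 on leaving out 1 library, the lowest without old replicate 3), Lama4 (−0.05 without old replicate 3, up to 0.24) and Frem2 (0.11 without young replicate 1, 0.23 without young replicate 2, 0.07 without old replicate 2, 0.10 without old replicate 3, down to −0.42). The others were Itga6 (−0.06 without old replicate 3, up to 0.21), Itgb5 (−0.06 without young replicate 2, −0.12 without old replicate 3, up to 0.13) and Itgb8 (−0.12 without old replicate 1, up to 0.19). With the union of exons as length, the Lama4 share difference was 3.32 points in place of 5.62. Leaving out 1 library gave share differences of 4.99 to 6.84 points for Lama4 and −5.24 to −2.56 points for Lama2.

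The 3 animals in each group, and the few reads of Lama1 and Itga11, limit the precision.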
